A study of Mus musculus with 14 samples.

Results

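Glycolysis turns glucose into pyruvate and lactate, and the hypoxia response is the set of genes that cells raise when oxygen is scarce. The 32 mouse genes described here were chosen by name as the transporters and enzymes of the pathway, the enzymes around pyruvate and lactate, the oxygen sensors, and targets of the hypoxia-inducible factors (HIFs). All 32 have a row among the 52550 genes of the count table. As background, prolyl hydroxylases encoded by the Egln genes use oxygen to mark HIF alpha proteins for destruction through the von Hippel-Lindau protein, so that in low oxygen HIF accumulates and switches on glucose uptake, glycolytic enzymes, angiogenic factors and the Egln genes themselves. Many glycolytic steps have several paralogous genes, of which each tissue uses its own mix. Hematopoietic stem cells in the marrow and many leukemias are known for their use of glycolysis.

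RNA sequencing was compared between mouse marrow preparations rich in hematopoietic stem and progenitor cells (HSPCs) and leukemic cells made from them. The groups were 4 samples of wild-type (WT) HSPCs, 4 samples of HSPCs from mice without the microRNA gene Mir139 (Mir139KO), and 6 cultures of WT HSPCs that carry the retroviral fusion oncogene MLL-AF9, which arises in human acute myeloid leukemia by a translocation. All mice were C57BL/6 and 8 to 20 weeks old. MLL-AF9 was expressed from the viral pMSCV vector with a neomycin resistance gene (neo, replicates 1 to 3) or a puromycin resistance gene (puro, replicates 4 to 6). Per the labels, MLL-AF9 cells were expanded with the cytokines SCF, GM-CSF, IL-6 and IL-3, transduced, drug-selected and replated in methylcellulose before lysis. Whether each HSPC sample was lysed directly or after expansion is not stated sample by sample. No culture of HSPCs without MLL-AF9 was analysed here, so the fusion gene and the culture cannot be told apart in any difference between MLL-AF9 cells and HSPCs. The labels do not say which samples came from separate mice or infections, and p-values measure the spread between these samples.

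Libraries held 35016668 to 45877994 counts. The MLL-AF9 label was checked with 2 genes the fusion is known to activate. Hoxa9 was at 122 to 159 normalised CPM (read counts scaled to a common library size with TMM factors) in MLL-AF9 cells against 2.87 to 6.12 in WT HSPCs, and Meis1 at 126 to 923 against 14.1 to 31.0. Mir139 was listed at 0 in all 14 libraries and could not check the Mir139KO label. The HSPC samples also held RNA of marker genes of erythroid cells, B cells, neutrophils and further lineages. The summed level of 12 erythroid markers was 1892 to 2739 CPM in WT HSPCs, 2080 to 3051 CPM in Mir139KO HSPCs and 3.4 to 16.8 CPM in MLL-AF9 cells, where Hba-a1, Hba-a2, Hbb-bs, Alas2 and Car1 had at most 3 counts in any library. The 8 B cell markers summed to 1611 to 2548, 1937 to 6099 and 10.1 to 30.2 CPM in the same order, and the 9 neutrophil markers to 4935 to 15870, 11867 to 23574 and 2999 to 4337 CPM. Of these 9, 4 were called lower against WT HSPCs and 0 higher. Megakaryocyte markers summed to 93.2 to 442 CPM in WT HSPCs and 3.77 to 17.4 CPM in MLL-AF9 cells. Mast cell, basophil and eosinophil markers summed to 444 to 793 and 3.57 to 27.4 CPM. Sums of T and NK cell markers and of stroma and endothelium markers were also lower in MLL-AF9 cells. These sums do not tell mature cells from progenitors of the same lineage. For every difference between MLL-AF9 cells and HSPCs given here, the part of cells of these lineages was not tested. In bulk RNA, fewer cells of a type and less RNA per cell cannot be told apart.

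A long noncoding RNA gene, Gm26917, took 32.7 to 35.4% of counts in WT HSPC replicates 3 and 4 and Mir139KO HSPC replicates 1 and 4, 17 to 21.9% in the other 4 HSPC libraries, and 7.55 to 10.4% in MLL-AF9 cells. Of the 31 genes described here with counts, 16 were higher in all 4 high-share than in all 4 low-share HSPC libraries on the normalised scale, 4 were lower (Pfkfb3, Pdk1, Slc16a1 and Bnip3) and 11 overlapped, that is 51.6% higher and 12.9% lower. Of all 17116 genes with a count in each of the 8 HSPC libraries, 28.2% were higher and 30.5% lower in this sense. The 18 enzymes from hexokinase to lactate dehydrogenase summed to 4823 to 6217 normalised CPM in the low-share and 10158 to 11147 in the high-share libraries, whereas in CPM of total counts the same sums were 5269 to 6172 and 6705 to 7023. In MLL-AF9 cells they were 4570 to 8768 normalised CPM and 6331 to 10714 CPM of total counts. The comparison of these enzymes with HSPCs therefore depended on the scaling.

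Of the 32 genes, 31 passed the filter on low counts for the comparison with WT HSPCs. Hif1a, which encodes the oxygen-regulated HIF alpha subunit, did not. It was listed at 0 counts in all 14 libraries. Its exons span 5896 bases at 73901375 to 73947530 on chromosome 12 (GRCm38), of which 478 are shared with other annotated genes. A listed 0 for a gene that most cells use can be a failed count, so nothing is said of its expression.

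The sequences around the start sites show how common the letters of a HIF site are in these genes. HIF binds a core that reads ACGTG or GCGTG, which was searched on both strands in the RefSeq promoters of build GRCm38.p6, each 250 bases before to 50 after a start site, with overlapping matches counted as 1. A promoter was listed for 31 of the 32 genes (none for Slc2a3), 45 promoters in all. At least 1 match was found in 36 of the 45, or 80%, against 43.8% of all 32851 promoters. The 45 promoters had a median GC content of 61.3%, against 52.7% for all, and the core itself holds a CG, so the 2 shares differ in base composition too. A match describes letters and is not shown to be bound. The 60 bases around the match farthest upstream are given for 7 of the 8 genes that were higher in MLL-AF9 cells than in both HSPC groups, at the start site farthest upstream, with each match in capitals and the strand of the gene.

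Slc2a1, chr4:119108656-119108715, plus strand: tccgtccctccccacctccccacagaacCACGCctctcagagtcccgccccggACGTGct

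Pfkfb3, chr2:11553958-11554017, minus strand: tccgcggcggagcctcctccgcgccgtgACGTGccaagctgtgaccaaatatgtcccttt

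Aldoc, chr11:78322995-78323054, plus strand: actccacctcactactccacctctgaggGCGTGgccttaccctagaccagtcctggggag

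Pdk1, chr2:71873118-71873177, plus strand: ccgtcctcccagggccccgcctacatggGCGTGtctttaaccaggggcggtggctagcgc

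Bnip3, chr7:138909592-138909651, minus strand: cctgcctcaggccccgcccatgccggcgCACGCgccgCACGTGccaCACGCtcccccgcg

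Egln3, chr12:54204065-54204124, minus strand: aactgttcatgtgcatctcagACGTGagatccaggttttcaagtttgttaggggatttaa

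Ankrd37, chr8:46000041-46000100, minus strand: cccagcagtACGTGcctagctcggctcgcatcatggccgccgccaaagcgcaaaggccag

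Bnip3 had 4 matches in its promoter, 3 of them in the stretch shown, and Ankrd37 had 3. Vegfa, the gene with the largest rise of the 8, had no match in the promoter of its upstream start (chr17:46032328-46032627, minus strand) and 2 in that of a start inside the gene. All 8 rising genes had at least 1 match at some start site, and so did 20 of the other 23 genes with a promoter. In 87.5% of the 8 and 60.9% of the 23 there were 2 or more in the promoter with the most matches. Of all 27025 genes with a promoter, 46.7% had at least 1 match and 19.2% had 2 or more, counted in the same way. A difference between the 8 and the 23 was not tested. Ldha, which did not pass the test, had 5 in its upstream promoter, and Ldhb, which fell, had 1.

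Against WT HSPCs, 8 of the 31 genes tested were higher in MLL-AF9 cells and 4 were lower (edgeR quasi-likelihood test, Benjamini-Hochberg adjusted p under 0.05 over all genes). Those 12 stand against a background of 62.2% of all 17077 genes called, 32.8% higher and 29.4% lower, so that fewer of these genes were called than of genes at large. Higher were Slc2a1, Pfkfb3, Aldoc, Pdk1, Egln3, Bnip3, Vegfa and Ankrd37. Lower were Hk1, Pfkl, Pfkm and Ldhb. The median log2 fold change was -0.05 over the 31 genes and 0.14 over all genes. Against Mir139KO HSPCs, the same 8 genes were higher and 8 were lower, among 30 tested, with 69.3% of all 16953 genes called, 37.3% higher and 31.9% lower. The 4 lower genes above were among them, with Hk3, Pfkfb4, Tpi1 and Gapdh. The 2 comparisons share the MLL-AF9 samples. With scaling by total counts only, which moved the median of all genes to 0.69 against WT and 0.84 against Mir139KO HSPCs, 15 genes were higher and 3 lower against WT HSPCs, and 14 and 3 against Mir139KO HSPCs. The 7 genes gained against WT HSPCs were Hk2 (log2 fold change 0.79), Gpi1 (0.66), Pfkp (0.85), Aldoa (0.74), Pgk1 (0.79), Slc16a3 (1.37) and Car9 (1.04), and all but Gpi1 were also gained against Mir139KO HSPCs. Pfkl was no longer called lower against either group, nor were Hk3, Pfkfb4, Tpi1 and Gapdh against Mir139KO HSPCs.

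**Figure D1:**
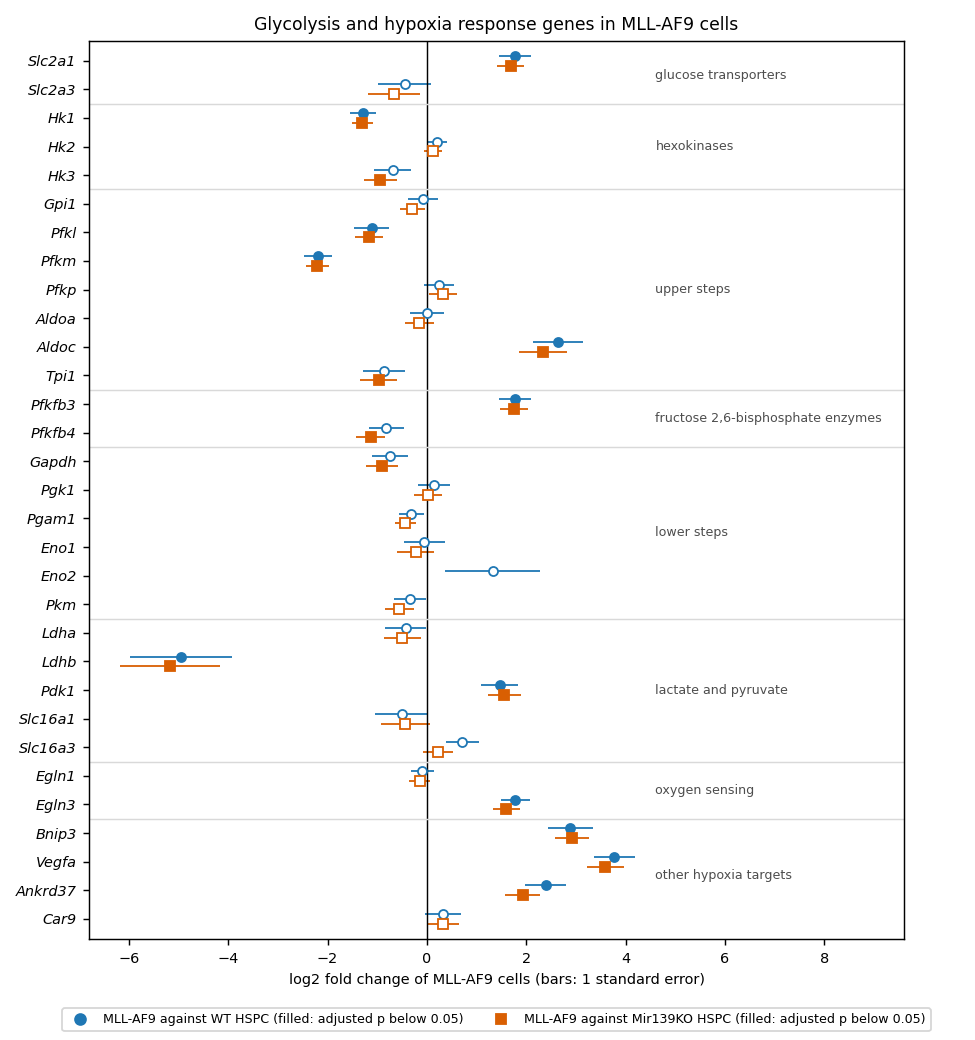
Log2 fold change of MLL-AF9 cells against WT HSPCs (circles) and Mir139KO HSPCs (squares) for the 31 genes tested, grouped by role, with 1 standard error and filled symbols where the adjusted p was under 0.05. The 8 genes that rose lie between 1.47 and 3.77 against WT HSPCs, and most enzymes of the lower pathway lie near 0.

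Glucose enters these cells through facilitative transporters. Slc2a1 encodes GLUT1, the broadly used transporter of growing cells. It was at 24.1, 15.8, 16.0 and 12.9 normalised CPM in WT HSPC replicates 1 to 4 and at 18.6, 15.3, 20.0 and 19.0 in Mir139KO HSPC replicates 1 to 4. In the MLL-AF9 cultures it was at 68.5, 52.6 and 37.3 in the neo cultures and 82.5, 38.2 and 75.6 in the puro cultures, all above every HSPC library. The rise was 3.42-fold against WT HSPCs (log2 fold change 1.77 ± 0.33 SE, edgeR adjusted p = 0.000686). Slc2a3 encodes GLUT3, a transporter of high affinity found in neurons and blood cells. Its values were 68.7 to 105 CPM in WT HSPCs and 7.9 to 152 CPM in MLL-AF9 cells, with the lowest value in puro replicate 5 and the highest in neo replicate 1, and it did not pass the test (adjusted p = 0.483).

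Because paralogs are counted in the same library, their shares of a family do not depend on the scaling between libraries. Shares here are of counts per base of exon and are given as descriptions. Some of them still differed between the low-share and the high-share HSPC libraries, as given below for Hk2, Pfkp and Pfkfb3. The shares of Hk3, Pfkl and Aldoc also differed between these library classes without overlap. Means here and in what follows are given ± SD, over 4 WT HSPC, 4 Mir139KO HSPC and 6 MLL-AF9 libraries. Slc2a1 made up 28.4 ± 4.87% of the Slc2a1 and Slc2a3 sum in WT HSPCs, 27.1 ± 3.57% in Mir139KO HSPCs and 68.1 ± 15% in MLL-AF9 cells. The lowest MLL-AF9 culture, at 48.2%, was above the highest HSPC library, at 32.3%. Puro cultures were at 73.2 to 90.9% and neo cultures at 48.2 to 64.3%, so the vectors did not overlap. The same held for the shares of Hk1, Hk2, Hk3, Pfkfb3, Aldoc and Ldhb in their families, and puro replicates 4 and 6 were nearly alike. The level of Slc2a1 itself overlapped between the vectors.

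Hexokinases trap glucose in the cell by phosphorylation. Hk1, the housekeeping form, was at 344, 351, 634 and 612 CPM in WT HSPC replicates 1 to 4 and at 523, 381, 439 and 597 CPM in Mir139KO HSPC replicates 1 to 4. The MLL-AF9 cultures were at 247, 181 and 166 CPM (neo) and 221, 169 and 210.1 CPM (puro), below every HSPC library. It fell by 1.29 ± 0.27 SE on the log2 scale against WT HSPCs (edgeR adjusted p = 0.00133). Hk2, the form raised by HIF and in many tumors, was not called with TMM factors, at 132 to 142 CPM in WT HSPCs and 137 to 183 CPM in MLL-AF9 cells (log2 fold change 0.21, 95% interval -0.20 to 0.61). Hk3, the form of myeloid cells, fell against Mir139KO HSPCs (log2 fold change -0.94 ± 0.34 SE, adjusted p = 0.0252) and missed the threshold against WT HSPCs (-0.69 ± 0.38 SE, adjusted p = 0.125). With the low-share HSPC libraries alone, or with total-count scaling, Hk3 was not called against either group. Per exon length, Hk3 made up 53.0% of the 3 in WT HSPCs and 52.8% in MLL-AF9 cells on average, and Hk2 made up 14.5 ± 5.39% and 25.5 ± 8.22%, with overlap. Per exon length, the Hk2 share was 15.42 to 20.08% in the low-share and 8.89 to 11.71% in the high-share HSPC libraries. The hexokinase shares also turned on the length used. Per length of the longest transcript, Hk1 led in WT HSPCs (45.9% against 43.0% for Hk3), and the Hk2 share did not overlap between MLL-AF9 cells (at least 15.4%) and HSPCs (at most 15.1%).

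In the upper steps, glucose phosphate is isomerised, phosphorylated again by phosphofructokinase and split by aldolase. Gpi1, the isomerase, was at 460.3 to 1146 CPM in WT HSPCs and 617 to 869 CPM in MLL-AF9 cells and was not called (log2 fold change -0.08 ± 0.31 SE), but with total-count scaling it was called higher against WT HSPCs, at 0.66. Of the phosphofructokinases, Pfkm, the muscle form, fell furthest. It was at 66.2, 62.8, 126 and 141 CPM in WT HSPC replicates 1 to 4 and at 116, 70.6, 81.3 and 129 CPM in Mir139KO HSPC replicates 1 to 4. In the MLL-AF9 cultures it was at 20.3, 19.6 and 18.1 CPM (neo) and 21.6, 28.6 and 22.2 CPM (puro), so that the groups were far apart. The log2 fold change was -2.19 ± 0.28 SE against WT HSPCs (edgeR adjusted p = 6.73e-05) and -2.21 ± 0.23 SE against Mir139KO HSPCs (adjusted p = 6.22e-06).

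Pfkl, the liver form, also fell, by 1.11 ± 0.35 SE on the log2 scale against WT HSPCs (adjusted p = 0.0158). Its values were 91.5, 98.3, 267 and 254 CPM in WT HSPC replicates 1 to 4, 249, 120.3, 125 and 238 CPM in Mir139KO HSPC replicates 1 to 4 and, for MLL-AF9 cells, 54.8, 127 and 73.6 (neo) and 82.5, 78.7 and 79.1 CPM (puro). Neo replicate 2 was above the low-share and below the high-share HSPC libraries, so that the groups overlapped. Without the high-share HSPC libraries, or without WT HSPC replicate 3 or 4, Pfkl was not called. Pfkp, the platelet form, was at 94.1 to 141 CPM in WT HSPCs and 93.4 to 241 CPM in MLL-AF9 cells and was not called (log2 fold change 0.24 ± 0.30 SE). Within the family, the share of Pfkm went from 46 ± 2.63% in WT HSPCs to 23.0 ± 4.50% in MLL-AF9 cells, and that of Pfkp from 14.7 ± 4.56% to 34.5 ± 6.92%, both without overlap between MLL-AF9 cells and the 8 HSPC libraries. The share of Pfkl was 39.3 ± 5.60% and 42.5 ± 7.13%. Among HSPCs, the Pfkp share was 15.72 to 19.75% in the low-share and 9.43 to 11.88% in the high-share libraries.

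Aldoa and Aldoc encode aldolases, Aldoa being the main form and Aldoc the form of brain. Aldoa was among the most abundant genes of the group and did not differ on the normalised scale, at 423 to 1155 CPM in WT HSPCs and 592 to 1063 CPM in MLL-AF9 cells (log2 fold change -0.00, 95% interval -0.68 to 0.68). It was called higher with total-count scaling (0.74), with the correction for GC content (0.98) and against the low-share WT HSPC libraries (0.80), and lower against the high-share ones (-0.64). Aldoc was at 1.21, 1.09, 1.64 and 1.97 CPM in WT HSPC replicates 1 to 4, and at 2.5, 1.49, 1.42 and 1.87 CPM in Mir139KO HSPC replicates 1 to 4. MLL-AF9 cells had 4.88, 11.0 and 2.55 CPM (neo) and 10.2, 16.0 and 10.7 CPM (puro), with neo replicate 3 just above the highest HSPC library. The log2 fold change was 2.63 ± 0.51 SE against WT HSPCs (edgeR adjusted p = 0.000886). Even so, Aldoc made up 1.07 ± 0.54% of the aldolase counts per exon length in MLL-AF9 cells, and 0.192 ± 0.057% in WT HSPCs. Tpi1, the triose phosphate isomerase, was at 204 to 574 CPM in WT HSPCs and 126 to 411 CPM in MLL-AF9 cells, called against Mir139KO HSPCs (log2 fold change -0.98 ± 0.37 SE, adjusted p = 0.0302) and not against WT HSPCs (adjusted p = 0.0875). The call against Mir139KO HSPCs held in 15 of 27 alternatives and was lost with low-share HSPC libraries only and without Mir139KO HSPC replicate 1 or 4, or MLL-AF9 replicate 1, 4 or 6.

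Fructose 2,6-bisphosphate, made by the Pfkfb enzymes, is the strongest activator of phosphofructokinase. Pfkfb3, whose enzyme favors the making of this activator, was at 77.3, 60.7, 49.7 and 48.9 CPM in WT HSPC replicates 1 to 4 and at 56.8, 63.6, 68.7 and 49.7 CPM in Mir139KO HSPC replicates 1 to 4. All MLL-AF9 cultures were higher, at 163, 143 and 141 CPM (neo) and 305, 183 and 286 CPM (puro). The rise was 3.42-fold against WT HSPCs (log2 fold change 1.77 ± 0.32 SE, edgeR adjusted p = 0.000595). Its paralog Pfkfb4 was at 20.4 to 62.5 CPM in WT HSPCs, 43.2 to 83.3 CPM in Mir139KO HSPCs and 14.8 to 39.4 CPM in MLL-AF9 cells, called lower against Mir139KO HSPCs (log2 fold change -1.13 ± 0.29 SE, adjusted p = 0.00418) but not against WT HSPCs (adjusted p = 0.0591). Pfkfb3 made up 46.7 ± 13.0% of the pair in WT HSPCs, 41.3 ± 8.79% in Mir139KO HSPCs and 82.8 ± 5.79% in MLL-AF9 cells, where the lowest culture, at 72.7%, was above the highest HSPC library, at 65.7%. Among HSPCs, the Pfkfb3 share was 44.39 to 65.71% in the low-share and 30.54 to 38.69% in the high-share libraries.

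**Figure D2:**
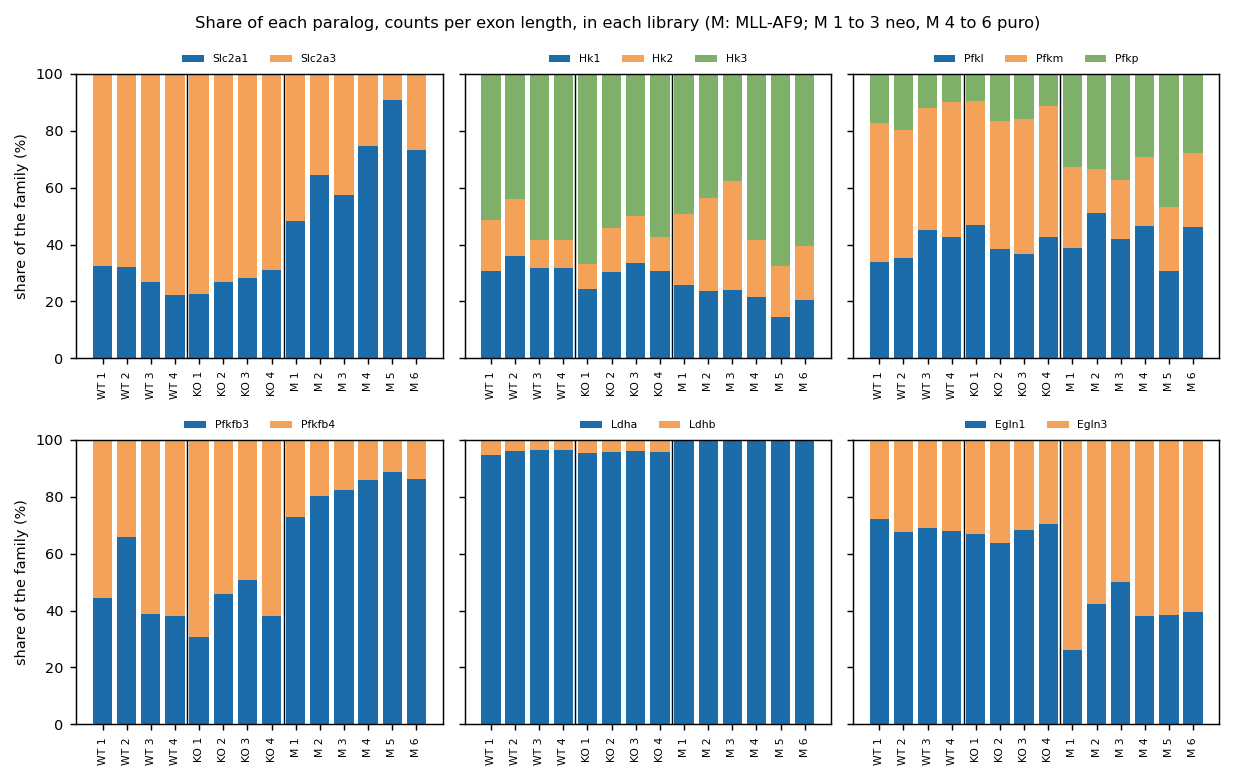
Share (%) of each paralog in the counts per exon length of its family, in each of the 14 libraries (WT, WT HSPC; KO, Mir139KO HSPC; M 1 to 3, MLL-AF9 neo; M 4 to 6, MLL-AF9 puro), for 6 families. Slc2a1, Pfkp, Pfkfb3, Ldha and Egln3 take a larger share in all 6 MLL-AF9 libraries than in any HSPC library, and the hexokinase shares overlap on this length scale.

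In the lower steps, none of 6 genes was called against WT HSPCs, and Gapdh alone was called against Mir139KO HSPCs. Gapdh, glyceraldehyde phosphate dehydrogenase, had the highest level per exon length of the 32 genes in both HSPC groups. It was at 956, 944, 2288 and 2202 CPM in WT HSPC replicates 1 to 4 and at 2388, 1224, 1246 and 2245 CPM in Mir139KO HSPC replicates 1 to 4. In the MLL-AF9 cultures it was at 823, 1595 and 1062 CPM (neo) and 633, 1007 and 641 CPM (puro), within or below the low-share HSPC values except for neo replicate 2. The log2 fold change was -0.75 ± 0.36 SE against WT (edgeR adjusted p = 0.0898) and -0.90 ± 0.32 SE against Mir139KO HSPCs (adjusted p = 0.022). Against the low-share Mir139KO libraries alone, and without Mir139KO HSPC replicate 1 or 4, Gapdh was not called, and it was called in 19 of 27 alternatives.

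Pgk1, phosphoglycerate kinase, was at 156 to 267 CPM in WT HSPCs and 138 to 363 CPM in MLL-AF9 cells (log2 fold change 0.14 ± 0.32 SE). Pgam1, phosphoglycerate mutase, was at 96.0 to 159 and 71.3 to 140.2 CPM (-0.31 ± 0.26 SE). Eno1, the main enolase, was at 397 to 977 and 359.5 to 1242 CPM (-0.05 ± 0.41 SE), and Pkm, the pyruvate kinase of growing cells, at 664 to 1488 and 639 to 1355 CPM (-0.34 ± 0.33 SE). None of these 4 was called against either HSPC group. The widest interval against WT HSPCs was that of Eno1, from -0.86 to 0.75 on the log2 scale. Eno2, the neuronal enolase, was close to the limit of detection, with 2 to 12 counts in HSPC libraries. It had 43, 50 and 46 counts in MLL-AF9 replicates 1, 4 and 6 and 1, 3 and 4 counts in replicates 2, 3 and 5.

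**Figure D3:**
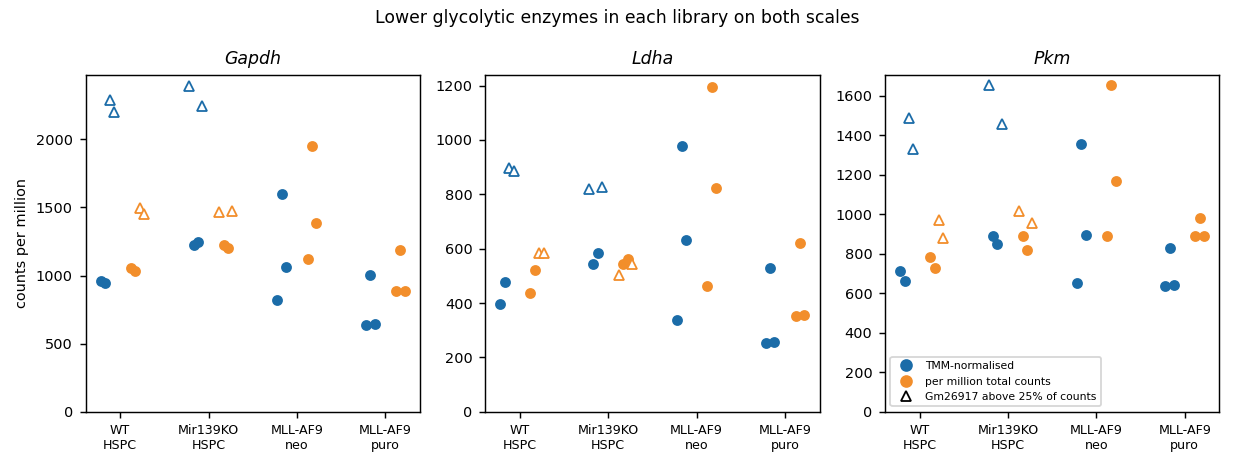
Gapdh, Ldha and Pkm in each library as TMM-normalised CPM (blue) and CPM of total counts (orange), with open triangles for the HSPC libraries in which Gm26917 took over 25% of the counts. The high-share HSPC libraries stand above the low-share ones on the normalised scale and closer to them in CPM of total counts, and MLL-AF9 replicate 2 (neo) is the highest MLL-AF9 library for each gene.

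At the end of the pathway, lactate dehydrogenase turns pyruvate into lactate. Ldha, the form that favors lactate and a classic HIF target, was at 397, 476, 897 and 885 CPM in WT HSPC replicates 1 to 4 and at 820.4, 545, 582 and 827 CPM in Mir139KO HSPC replicates 1 to 4. MLL-AF9 cells were at 339, 977 and 632 CPM (neo) and 252, 527 and 257 CPM (puro), so that the cultures spread over the whole HSPC range and below it. Ldha was not called against either group (log2 fold change -0.43, 95% interval -1.24 to 0.39, against WT HSPCs). Ldhb, the form of heart and of oxidative tissues, was nearly lost. It had 517, 380, 459 and 416 counts in WT HSPC replicates 1 to 4, 425, 421, 462 and 429 counts in Mir139KO HSPC replicates 1 to 4, 10, 76 and 39 counts in the neo cultures and 1 count in each puro culture.

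The fall of Ldhb against WT HSPCs was called (log2 fold change -4.95 ± 1.03 SE, edgeR adjusted p = 0.00138), though at counts this low the fitted size depends on the prior count. Over summed counts scaled by library size, Ldhb was 614-fold higher in WT HSPCs than in the puro cultures (1772 against 3 counts, 95% exact interval 210 to 2980, counting error only) and 15.1-fold higher than in the neo cultures (interval 12.6 to 18.2). Ldhb made up 4.05 ± 0.91% of the pair in WT HSPCs, and at most 0.322% in any MLL-AF9 culture.

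Pdk1 encodes a kinase that shuts pyruvate out of the mitochondrial cycle by inhibiting pyruvate dehydrogenase. It was at 43.8, 49.7, 19.2 and 17.5 CPM in WT HSPC replicates 1 to 4 and at 16.4, 42.0, 40.9 and 22.7 CPM in Mir139KO HSPC replicates 1 to 4. MLL-AF9 cultures were at 58.3, 133 and 103 CPM (neo) and 69.4, 107 and 73.9 CPM (puro), all above every HSPC library. It rose by 1.47 ± 0.37 SE on the log2 scale against WT (edgeR adjusted p = 0.00484) and 1.56 ± 0.33 SE against Mir139KO HSPCs (adjusted p = 0.00122). Its HSPC values fell into the share classes, with 40.9 to 49.7 CPM in low-share and 16.4 to 22.7 CPM in high-share libraries. Against the low-share WT libraries alone the log2 fold change was 0.90 and missed the threshold (adjusted p = 0.0504).

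The lactate transporters did not pass the test. Slc16a1 (MCT1) was at 45.3 to 141 CPM in WT HSPCs, lowest in the high-share libraries, and at 35.7, 101 and 121 (neo) and 22.7, 99.9 and 23.2 CPM (puro) in MLL-AF9 cells. Slc16a3 (MCT4), the lactate exporter that HIF is known to raise, was at 81.2 to 140.3 CPM in MLL-AF9 cells, above all WT values (23.7 to 75.5 CPM) but within the Mir139KO range (52.5 to 152 CPM), with adjusted p of 0.0767 and 0.544.

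Among the oxygen sensors, Egln1, the main prolyl hydroxylase, was not called and Egln3, the hydroxylase most strongly raised by HIF, rose. Egln1 was at 53.4 to 68.0 CPM in WT HSPCs, 55.9 to 73.6 CPM in Mir139KO HSPCs and 41.1 to 67.6 CPM in MLL-AF9 cells (log2 fold change -0.09, 95% interval -0.55 to 0.36). With the GC offset it turned to 0.67 and was called higher against Mir139KO HSPCs (adjusted p = 0.0345). Egln3 was at 19.5, 22.1, 20.7 and 18.7 CPM in WT HSPC replicates 1 to 4 and at 20.5, 25.3, 25.1 and 20.3 CPM in Mir139KO HSPC replicates 1 to 4. The MLL-AF9 cultures were at 86.2, 67.7 and 32.7 CPM (neo) and 81.5, 77.8 and 72.6 CPM (puro), with neo replicate 3 well below the other 5 and still above all HSPCs. The rise was 3.43-fold against WT HSPCs (log2 fold change 1.78 ± 0.29 SE, edgeR adjusted p = 0.00034). Egln3 made up 30.8 ± 1.99% of the pair in WT HSPCs, 32.6 ± 2.90% in Mir139KO HSPCs and 61.0 ± 7.72% in MLL-AF9 cells.

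Of the other hypoxia targets, 3 of 4 rose against both HSPC groups, and Vegfa had the largest rise of the 32 genes. Vegfa encodes the growth factor that makes endothelial cells sprout. It was at 18.5, 13.2, 10.8 and 13.0 CPM in WT HSPC replicates 1 to 4 and at 17.4, 15.3, 15.8 and 13.9 CPM in Mir139KO HSPC replicates 1 to 4. MLL-AF9 cultures were at 211, 90.1 and 118 CPM (neo) and 285, 161 and 276 CPM (puro). The lowest culture was several times the highest HSPC library. The rise was 13.6-fold against WT (log2 fold change 3.77 ± 0.41 SE, edgeR adjusted p = 2.32e-05) and 12.1-fold against Mir139KO HSPCs (3.59 ± 0.37 SE, adjusted p = 6.61e-06).

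Bnip3, a mitochondrial protein that starts the removal of mitochondria in low oxygen, was at 3.89, 3.36, 0.769 and 2.27 CPM in WT HSPC replicates 1 to 4 and at 2.63, 2.77, 3.17 and 1.44 CPM in Mir139KO HSPC replicates 1 to 4. It was at 18.7, 28.5 and 11.8 CPM (neo) and 20.8, 14.8 and 20.8 CPM (puro) in MLL-AF9 cells, with no overlap. The log2 fold change was 2.89 ± 0.46 SE against WT HSPCs (edgeR adjusted p = 0.000268). Of the exon bases of Bnip3, 22.3% are shared with other annotated genes, and near-identical copies elsewhere in the genome held 3.30% as many counts. Ankrd37, an ankyrin repeat protein raised by HIF, had 8 to 29 counts in HSPC libraries and 86 to 118 counts in MLL-AF9 cells. In normalised CPM it was at 0.208, 0.672, 0.334 and 0.297 in WT HSPC replicates 1 to 4, at 0.733, 0.429, 0.342 and 0.598 in Mir139KO HSPC replicates 1 to 4. The cultures were at 2.05, 2.23 and 1.56 (neo) and 2.21, 1.74 and 2.22 (puro). The groups did not overlap, and the log2 fold change was 2.39 ± 0.42 SE against WT HSPCs (edgeR adjusted p = 0.000475). Shared exon bases make up 26.4% of Ankrd37. Car9, a carbonic anhydrase that is often used as a marker of hypoxia in tumors, was at 2.99 to 6.25 CPM in WT HSPCs and 3.77 to 7.48 CPM in MLL-AF9 cells and was not called (log2 fold change 0.32, 95% interval -0.39 to 1.04).

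**Figure D4:**
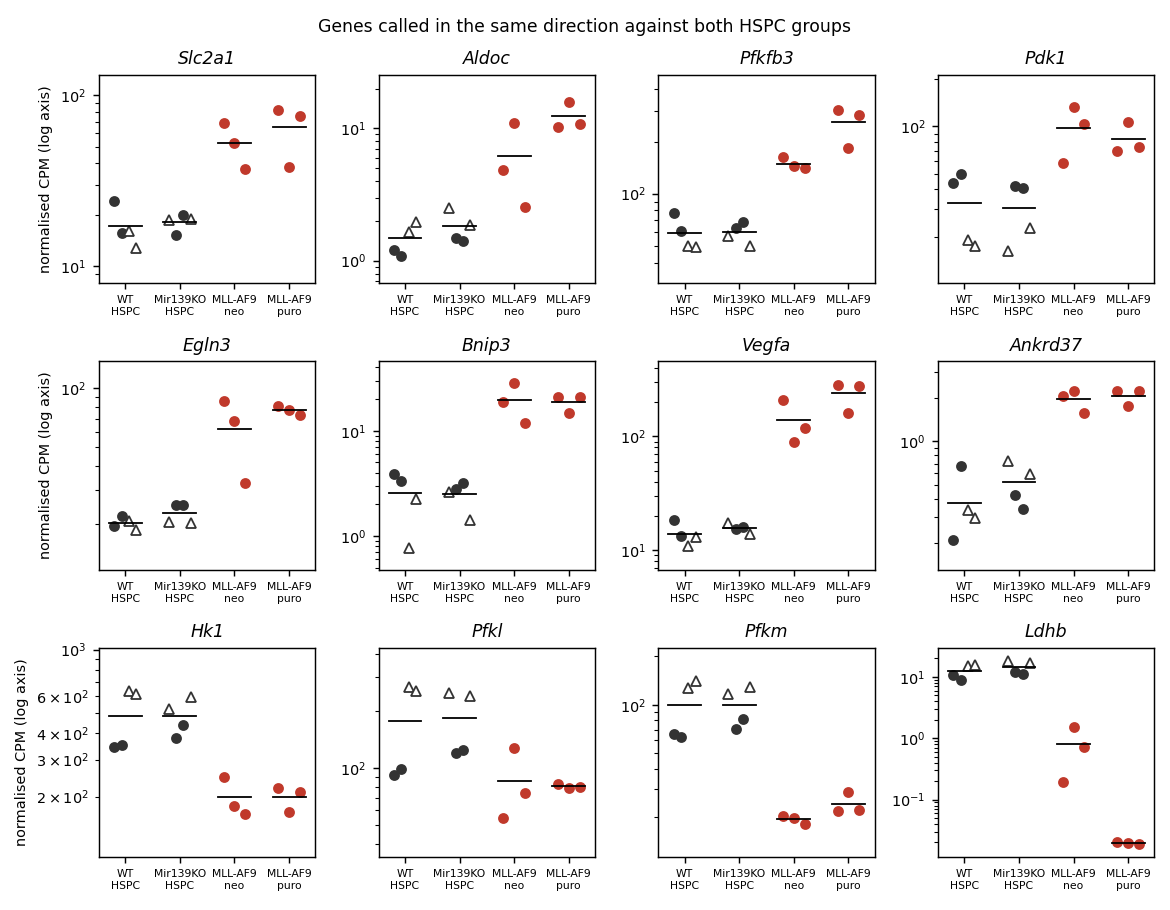
Normalised CPM on a log axis in each library for the 12 genes called in the same direction against both HSPC groups, with bars at the mean of each column, open triangles for high-share HSPC libraries and red points for MLL-AF9 cultures. Groups do not overlap for 11 of the 12 genes, and neo replicate 2 of Pfkl lies between the low-share and the high-share HSPC libraries.

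Each of the 8 rising genes stayed called higher in every alternative in which it was tested, with 1 exception, Pdk1 against the low-share WT libraries. Their log2 fold changes against WT HSPCs were 3.36 to 4.33 for Vegfa, 1.75 to 3.57 for Bnip3, 2.07 to 3.28 for Aldoc, 2.14 to 2.96 for Ankrd37, 1.52 to 2.46 for Slc2a1, 1.64 to 2.36 for Egln3, 1.36 to 2.32 for Pfkfb3 and 0.90 to 2.19 for Pdk1. Of the falling genes, Pfkm and Ldhb were called in all 27 alternatives, Hk1 in 26 and Pfkl in 18. Groups did not overlap for 12 of the 31 genes against WT HSPCs, with 50.5% of all genes not overlapping, and for 12 of the 30 against Mir139KO HSPCs, with 58.0% of all genes.

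Levels between genes can be compared only per exon length. On that scale, in CPM per kilobase, the order in WT HSPCs ran from Gapdh (386), Aldoa (264), Pkm (209.8) and Ldha (200.5) down to Bnip3 (1.13), Aldoc (0.452), Ankrd37 (0.245) and Eno2 (0.0403), with neighbors at the top within the spread of their libraries. In MLL-AF9 cells Aldoa (265), Gapdh (232), Pkm (167) and Ldha (150.3) were still the top 4. Vegfa went from 3.24 to 44.4, above Slc2a1 (16.9), Pfkfb3 (26.9) and Egln3 (26.2).

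Mir139KO HSPCs set beside WT HSPCs address the loss of the microRNA in untransformed cells. None of the 30 genes tested was called (edgeR, smallest adjusted p = 1.0), with 0.0% of all 15056 genes called. At an unadjusted p under 0.05 there were 0 of the 30 genes and 86 of all genes, and DESeq2 and limma-voom also called 0 of the 30. The median log2 fold change was 0.10 over the 30 genes and -0.03 over all genes. The largest was 0.48 for Slc16a3 (95% interval -0.38 to 1.34), and that of Vegfa was 0.16 (-0.35 to 0.66), that of Ldha 0.05 (-0.60 to 0.70) and that of Pdk1 -0.11 (-0.99 to 0.77). Groups overlapped for all 30 genes, with 0.491% of all genes not overlapping.

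The comparison of puro with neo cultures asks whether the vectors, or the infections behind them, differ. None of the 31 genes tested was called by edgeR, with 0.873% of all 16503 genes called. That share depended on which cultures were used. Of all genes, 93 were higher and 51 lower in puro, against 4 and 1 with replicates 4 and 6 summed. Without MLL-AF9 replicate 2 or 3 there were 0 of each. At an unadjusted p under 0.05 there were 4 of the 31 genes and 2259 of all genes. DESeq2 called 1, Ldhb, and limma-voom called 0. The log2 fold change of Ldhb was -5.19 ± 0.95 SE (edgeR adjusted p = 0.0708), with 10 to 76 counts in neo and 1 in each puro culture, and its count ratio was 40.7 (95% exact interval 13.6 to 200, counting error only). Neo and puro cultures did not overlap for 7 of the 31 genes, with 19.9% of all genes not overlapping. These were Hk2, Slc16a3 and Ldhb, higher in neo, and Hk3, Pfkm, Pfkfb3 and Car9, higher in puro.

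The cultures also differed within each vector. MLL-AF9 replicates 1, 4 and 6 had the 3 lowest values of Ldha (252 to 339 CPM), Gapdh, Tpi1, Pgk1 and Eno1 and the 3 highest of Vegfa (211 to 285 CPM) and Slc2a1 (68.5 to 82.5 CPM). Pdk1, a rising gene like Vegfa and Slc2a1, had its 3 lowest values in these replicates, as did Slc16a1. Bnip3, Egln3 and Pfkfb3 did not split in this way. The share of all genes with such a split was not counted. The summed level of 8 proliferation genes was 850.2 CPM in replicate 1, 410.5 in replicate 4 and 429.8 in replicate 6, against 2121, 1730.2 and 1948 CPM in replicates 2, 3 and 5 and 2023 to 2652 CPM in HSPCs. The part of proliferation in these values was not tested. The 8 genes did not move together, with 3 called lower and 1 higher against WT HSPCs. Mcm2 and Mcm5, the largest of the 8 in WT HSPCs (means of 566 and 770 CPM), were at 93.6 and 111 CPM in MLL-AF9 cells. Mki67 was at 204 CPM in WT HSPCs and 505 CPM in MLL-AF9 cells. Replicates 4 and 6 were also nearly alike (r = 0.998 of log2 values across genes that passed a count filter, which are not independent replicates). They differed beyond counting noise, and they were kept as 2 samples.

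Other genes of the same pathways were described from lists named by function, beside 32.8% of all genes called higher and 29.4% lower against WT HSPCs, and 37.3% and 31.9% against Mir139KO HSPCs. Of 34 tested genes of a longer list of hypoxia targets, 15 were higher and 6 lower against WT HSPCs, with a median log2 fold change of 0.60 against 0.14 for all genes. Against Mir139KO HSPCs 17 were higher and 8 lower, with a median of 0.58 against 0.16. The largest rise was in Stc2, a secreted glycoprotein, at 0.662 ± 0.229 CPM in WT HSPCs and 46.3 ± 28.0 CPM in MLL-AF9 cells (log2 fold change 6.10 ± 0.56 SE, edgeR adjusted p = 6.62e-06). The largest fall was in Ppfia4, at 52.0 ± 22.0 CPM and 2.69 ± 0.91 CPM (-4.28 ± 0.37 SE, adjusted p = 4.57e-06).

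Of 17 regulators of HIF tested, 5 were higher and 7 lower against WT HSPCs, set against 32.8% and 29.4% of all genes, with a median log2 fold change of -0.28. Siah1a, a ubiquitin ligase that degrades Egln proteins, rose from 11.7 ± 7.86 to 48.7 ± 16.0 CPM (2.05 ± 0.46 SE, edgeR adjusted p = 0.00229). Epas1, which encodes the second HIF alpha subunit, fell from 5.90 ± 2.15 to 1.31 ± 0.44 CPM (-2.17 ± 0.38 SE, adjusted p = 0.000503).

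Of 22 further glycolysis genes tested, 7 were higher and 7 lower, close to the 32.8% and 29.4% of all genes, with a median of -0.06. Pfkfb1, a further enzyme of the Pfkfb family, rose from 1.83 ± 0.45 to 12.7 ± 4.91 CPM (2.77 ± 0.40 SE, edgeR adjusted p = 0.000148). Pklr, the pyruvate kinase of red cells and liver, fell from 172 ± 78.4 to 0.149 ± 0.201 CPM (-10.14 ± 0.89 SE, adjusted p = 4.84e-06), as did 11 of the 11 erythroid markers tested.

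Of 8 pentose phosphate genes tested, 3 were higher and 4 lower, with a median of -0.57, beside 32.8% and 29.4% of all genes. Rpe, ribulose phosphate epimerase, rose from 13.7 ± 9.25 to 134 ± 40.2 CPM (3.27 ± 0.50 SE, edgeR adjusted p = 0.000201), and Pgls, phosphogluconolactonase, fell from 117 ± 67.8 to 35.4 ± 5.27 CPM (-1.73 ± 0.35 SE, adjusted p = 0.00116). Of 13 genes for the entry of pyruvate into mitochondria, 2 were higher and 3 lower, beside the same shares of all genes, with a median of 0.18. Mpc1, a subunit of the mitochondrial pyruvate carrier, rose from 6.14 ± 2.42 to 37.6 ± 6.12 CPM (2.60 ± 0.32 SE, edgeR adjusted p = 4.76e-05). Pdk2, a paralog of Pdk1, fell from 15.4 ± 6.69 to 1.61 ± 1.56 CPM (-3.25 ± 0.67 SE, adjusted p = 0.00127).

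**Figure D5:**
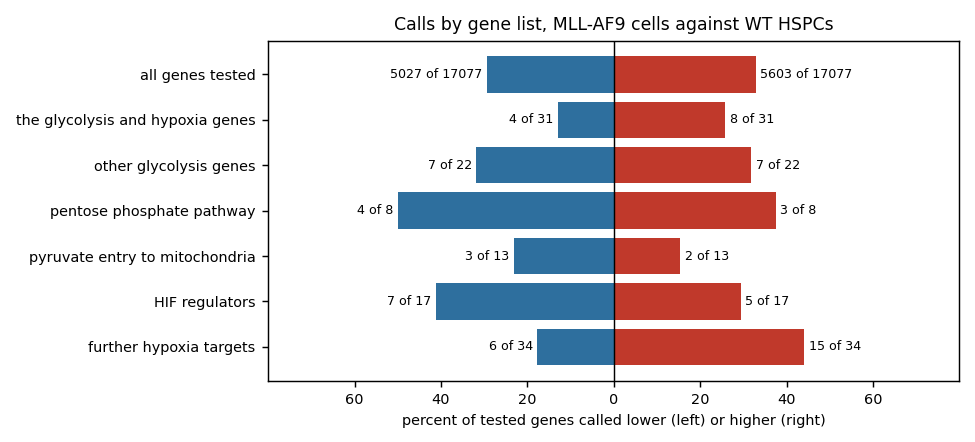
Percent of tested genes called higher (right) or lower (left) in MLL-AF9 cells than in WT HSPCs, for all genes, the glycolysis and hypoxia genes described here and 5 further lists, with counts beside the bars. The longer list of hypoxia targets has 15 of 34 genes higher and 6 lower, and the other 4 further lists have at least as many lower as higher.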

How the data were processed

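Total RNA depleted of ribosomal RNA was sequenced in 14 samples. The deposited values are raw counts per gene, which the authors made with STAR 2.5.3e and featureCounts 1.6.0 on GRCm38 per their processing notes and methods. The strand setting and the handling of reads that map to several places are not given in the sources used here. The deposit holds a pair of count tables that agree in every shared cell, and 10 columns of another series were not used.

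Each comparison used its own groups in edgeR 4.0.16 (limma 3.58.1, R 4.3.3), with TMM factors, genes with at least 10 counts in as many samples as the smaller group, the robust quasi-likelihood test and Benjamini-Hochberg adjustment over all genes tested. Genes under 0.05 were called. The SE is the log2 fold change over the square root of F, and 95% intervals of log2 fold changes are normal intervals from it. Values in the text are CPM with TMM factors over all 14 libraries. The smallest visible level, 3 counts, was 0.0544 to 0.129 CPM. Exact intervals and this floor cover counting error only, because reads here carry no molecular identifiers and are not independent.

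Coordinates and exon lengths are from GENCODE M21 (GRCm38), which matched 52403 of 52550 gene identifiers. Near-identical copies were found with BLAST 2.17.0 (at least 95% identity over 300 bases). Copies held under 1% as many counts as their gene, except for Bnip3. A second identifier named Aldoa was at 0 counts. Promoters are from RefSeq. The genes and lists were chosen with earlier results of these data known. All 32 genes are accounted for, and of each further list the called genes with the largest rise and fall against WT HSPCs are named (mean log2 CPM of at least 1). Alternatives were RLE factors, total counts, DESeq2 1.42.0, limma-voom, other filters, all samples in a single fit, abundant genes left out, a fold threshold, a replicate block, a GC offset, each vector or share class alone, replicates 4 and 6 summed and each replicate left out. The split of HSPC libraries at 25% Gm26917 for Mir139KO against WT HSPCs was added after seeing the data. The fits were tested on simulated counts with known changes. These counts were drawn without the Gm26917 share classes or near-alike cultures, so that the test does not cover those features of the data.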

Additional observations from a re-analysis of the deposited data

Results flagged for a closer look

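In 5 of 93 groups of values, 1 library lay farther from the others than Dixon's 95% criterion allows, which chance gives in about 1 of 20 groups. Slc2a3 was at 152 CPM in MLL-AF9 replicate 1 (neo) against 7.90 to 60.3 CPM in the other 5 cultures. Pkm was at 1355 CPM in MLL-AF9 replicate 2 (neo) against 639 to 893 CPM, and Slc16a3 in the same culture at 140.3 CPM against 81.2 to 103 CPM. Slc16a3 was also low in WT HSPC replicate 2, at 23.7 CPM against 69.2 to 75.5 CPM in the other 3. Egln3 was at 32.7 CPM in MLL-AF9 replicate 3 (neo) against 67.7 to 86.2 CPM in the other 5, and its rise against both HSPC groups was called with every culture left out in turn.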

How the results depend on the processing

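The main limits are the scaling between libraries of very different Gm26917 share and the RNA of several lineages in the HSPC samples. The lack of cultured HSPCs and the small groups are further limits. Against WT HSPCs, 12 genes were called (8 higher, 4 lower). With high-share HSPC libraries only there were 20, of which 12 were lower, and with total counts only 15 were higher. Leaving out a replicate gave 11 to 15 called, 8 higher in each and 3 to 7 lower, with 7 lower without WT HSPC replicate 2. Against Mir139KO HSPCs, 16 were called (8 higher, 8 lower). There were 13 higher and 4 lower with the GC offset, 14 and 3 with total counts only, 3 lower with low-share HSPC libraries only, and 5 lower where a log2 change of 1 or more was also required. Leaving out a replicate gave 13 to 19 called, 8 to 9 higher and 5 to 11 lower, with 5 lower without Mir139KO HSPC replicate 1 or 4. For puro against neo, 0 were called. DESeq2, the single fit of all 14 samples and the replicate block with GC offset each called 1 (Ldhb), and leaving out a replicate gave 0 to 1 (Pfkfb3, without MLL-AF9 replicate 5). Mir139KO against WT HSPCs gave 0 in every alternative.

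Directions of single genes that were called in the main fit or in the alternative reversed in 9 cases. Against WT HSPCs these were Gpi1 with total counts only (0.66) and Aldoa with the GC offset (0.98), with the replicate block and GC offset (0.95), with low-share HSPC libraries only (0.80) and with total counts only (0.74). Against Mir139KO HSPCs they were Hk3 with the GC offset (0.013), Aldoa with the GC offset (0.85) and with total counts only (0.64), and Egln1 with the GC offset (0.67). Genes called in neither fit changed sign as well. With total counts only, Ldha went from -0.43 to 0.26, Pkm from -0.34 to 0.36 and Eno1 from -0.05 to 0.65 against WT HSPCs. Apart from the settings themselves, the cause was not tested.

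By the rule that every pair's correlation exceed 0.1, the replicate numbers did not pair the samples. Deviations of equally numbered samples correlated at -0.068 to 0.11 for MLL-AF9 cells with WT HSPCs, 0.036 to 0.18 (positive in all 4) with Mir139KO HSPCs, -0.74 to 0.80 for Mir139KO with WT HSPCs and -0.45 to 0.57 for puro with neo. The replicate block called 11 genes against WT and 14 against Mir139KO HSPCs, and 0 in the other comparisons. The GC offset with the block called 11 higher and 4 lower against Mir139KO HSPCs.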
